A study of Drosophila melanogaster with 6 samples.

Results

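Of the genes measured in whole Drosophila melanogaster embryos, 126 whose symbol is still a CG number had higher signal in sage mutants than in wild type. They were selected on the 6 signal values of each probe set, among probe sets that name a single gene with a CG symbol. The mutant mean had to be at least 7 on the log2 scale, the mutant mean had to exceed the wild type mean by at least 1, and every mutant array had to lie above every wild type array. 126 of 5667 such probe sets met the rule, each for a different gene, out of 11983 genes named singly by the 18769 probe sets tested. Because these values chose the genes, the size of the difference is given below as a description, with no test.

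The wild type group was 3 samples of the Oregon R strain, and the other group was 3 samples of sage mutant embryos. Embryos of both groups were at stages 11-16 and of matched age. They were kept at 25 °C and passed through a COPAS biosorter, and RNA was isolated in the same way. Each sample went to 1 Affymetrix 3′ array. The sources used here do not give the sage allele, the strain it was kept in, or whether mutants were homozygous, so a difference in strain background and the loss of sage cannot be told apart. RNA came from whole embryos, in which a change in the number of cells of a type and a change in RNA per cell cannot be told apart either.

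sage encodes a basic helix-loop-helix transcription factor that is made in the embryonic salivary gland, where it works with the forkhead factor Fkh to switch on genes of the secretory programme. A CG number is the identifier that a predicted fly gene receives from the genome annotation, and a gene keeps it as its symbol until a name replaces it. Late in embryogenesis the epidermis lays down the larval cuticle, the midgut starts to make digestive enzymes, and many small secreted proteins appear, so that numerous genes without a name belong to families of secreted proteins. The protein and promoter sequences of these genes were not used here.

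sage itself served as the check of the labels. Its signal was 8.21, 8.61 and 7.93 in wild type and 5.28, 5.44 and 5.12 in the mutants, a 7.83-fold lower level (limma adjusted p = 0.00125). Array medians lay between 5.89 and 6.01. The mean correlation of an array with the rest of its group was lowest for wild type replicate 2, at 0.977, and lay from 0.985 to 0.993 elsewhere. Signal at the 5′ end relative to the 3′ end of 5 control transcript pairs, which falls when RNA is degraded or incompletely copied, was −1.88, −1.76 and −1.89 in wild type and −4.35, −3.51 and −3.17 in the mutants. All 3 mutant arrays were thus lower in 5′ signal, with mutant replicate 1 the lowest. The groups do not overlap in this measure.

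In wild type the 126 genes covered a wide range of signal, with group means from 4.61 to 11.35 and a median of 6.89. 30 of them had a wild type mean under 6, near or below the array medians, 35 lay from 6 to under 7, 45 from 7 to under 9, and 16 at 9 or more. In the mutants the means ran from 7.001 to 12.45 with a median of 8.52. The median difference was 1.42 on the log2 scale, which is 2.68-fold, and the largest was 3.13, or 8.77-fold. 26 genes differed by at least 2, 28 by 1.5 to under 2, and 72 by 1 to under 1.5. The median over all 18769 probe sets was −0.03, and over the 5667 probe sets with a CG symbol it was −0.01. Of the 26 genes that differed by at least 2, 14 had a wild type mean under 6 and 3 had one of 8 or more. Nothing is read from this, since the floor of 7 on the mutant mean makes a gene with a low wild type mean differ by more. Detection above background was not assessed, so the fold of a gene that starts near the array median is not exact.

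**Figure D1:**
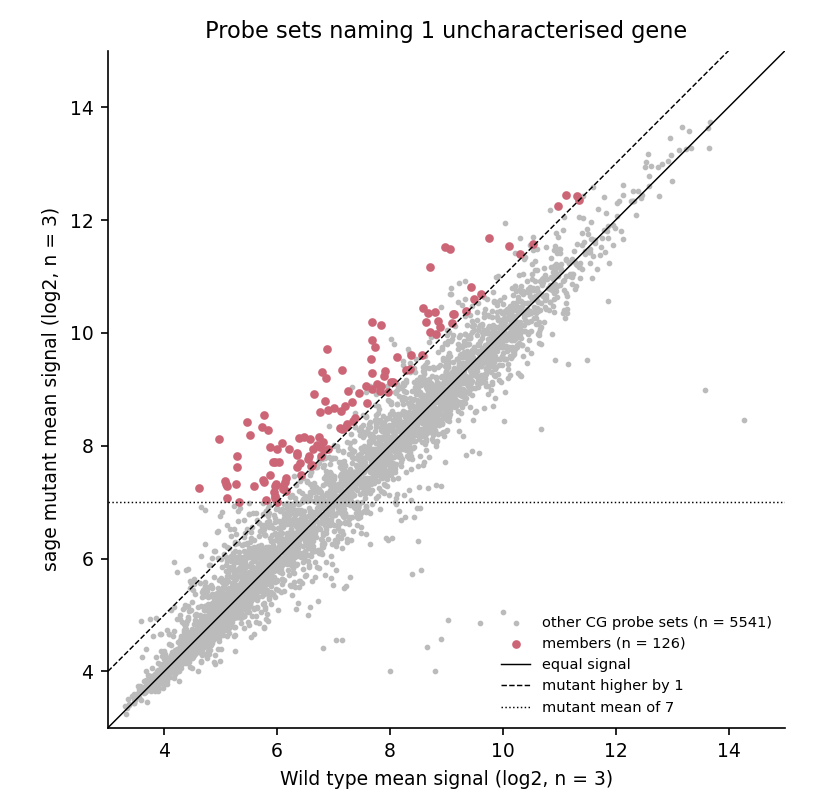
Mean log2 signal in wild type (x axis, n = 3) against sage mutants (y axis, n = 3) for the 5667 probe sets that name 1 CG gene; red points are the 126 genes that met the rule, grey points the others, and the lines mark equal signal, a difference of 1 and a mutant mean of 7. The red points lie at wild type means from 4.61 to 11.35, and the floor of 7 keeps those at low wild type signal well above the dashed line.

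By limma over all probe sets, 63 of the 126 had an adjusted p under 0.05, which is 50%, beside 2.1% of all probe sets called as higher in the mutants, 1.93% called as lower and 4.03% called in either direction. Nothing is read from that count, since the rule used the same contrast. When the 5′ to 3′ measure of the controls entered the fit as a covariate, an alternative chosen after seeing the data, limma called 0 of the 126, with 99 at an unadjusted p under 0.05, and 0 of all probe sets, with 1613 at an unadjusted p under 0.05. All 126 differences stayed positive in that fit, with a median of 2.49. Because the measure does not overlap between the groups, this fit cannot tell it apart from genotype. The larger median is therefore not read as a difference corrected for RNA quality. The mutant arrays all lay above the wild type arrays at 10.3% of all probe sets and all below them at 14.1%, which is 24.4% in either direction. Over the whole array, 394 probe sets were called higher and 363 lower, and subtracting the array medians turned these counts into 334 and 465. The number of called members was 25 without wild type replicate 1, 34 without wild type replicate 3, 16 without mutant replicate 2, 17 without mutant replicate 3 and 97 without mutant replicate 1. The cause was not tested.

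The borders of the rule fell within a continuous range of values. CG13623, CG15731 and CG3457 were the last genes inside the difference of 1, at 1.003, 1.003 and 1.01, and CG2065, CG5391 and CG6908 were the first outside it, at 0.99, 0.98 and 0.98. CG31517, CG3457 and CG13311 lay just inside the mutant mean of 7, at 7.001, 7.01 and 7.04, and CG13248, CG13606 and CG34437 just outside, at 6.99, 6.98 and 6.98. CG4998, CG15279 and CG13046 had the smallest gaps between the lowest mutant and the highest wild type array, at 0.01, 0.02 and 0.02. CG43394, CG14770 and CG14397 overlapped by 0.01, 0.03 and 0.04 and were left out. In all, 44 probe sets met both thresholds but overlapped, and 56 missed only the mutant mean of 7.

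The largest differences mostly belonged to genes for which no role is given here. CG14022, on chromosome arm 2L, had signals of 4.77, 5.15 and 5.01 in the wild type arrays, in order of replicate number, and 7.96, 8.22 and 8.15 in the mutant arrays, a difference of 8.77-fold. Its wild type mean lay below the array medians, and the groups were separated by a gap far wider than the spread within either. CG5697 (3R) read 5.73, 5.38 and 5.30 in wild type and then 7.77, 8.59 and 8.93, or 7.77-fold. CG8369 (3R) was at 6.90, 6.96 and 6.81 in wild type and at 8.72, 10.45 and 9.996 in the mutants, 7.1-fold higher. Both of these genes had mutant replicate 1 well below the other mutant arrays.

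CG12934 (2R) stood at 5.88, 5.38 and 6.04 in wild type and 8.32, 8.58 and 8.73 in the mutants, 6.84-fold higher. For CG11370 (3L) the values were 5.44, 5.48 and 5.66 against 8.13, 7.99 and 8.45, 6.33-fold. CG10799 (2R) started from 4.51, 4.65 and 4.69, and reached 6.82, 7.56 and 7.35, 6.19-fold higher. In this last case the lowest mutant array was still under 7. CG5084 (2R) had 5.64, 5.54 and 5.99 and 7.85, 8.77 and 8.38, a 6.1-fold difference. CG15202 on the X chromosome had 7.07, 6.48 and 6.83 in wild type and 8.78, 9.40 and 9.76 in the mutants, 5.74-fold higher. CG4000 (3R) had 5.61, 4.91 and 5.35 and 6.76, 8.62 and 8.05, which is 5.73-fold. The mutant arrays of CG4000 spread over 1.85, more than the gap between the groups.

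**Figure D2:**
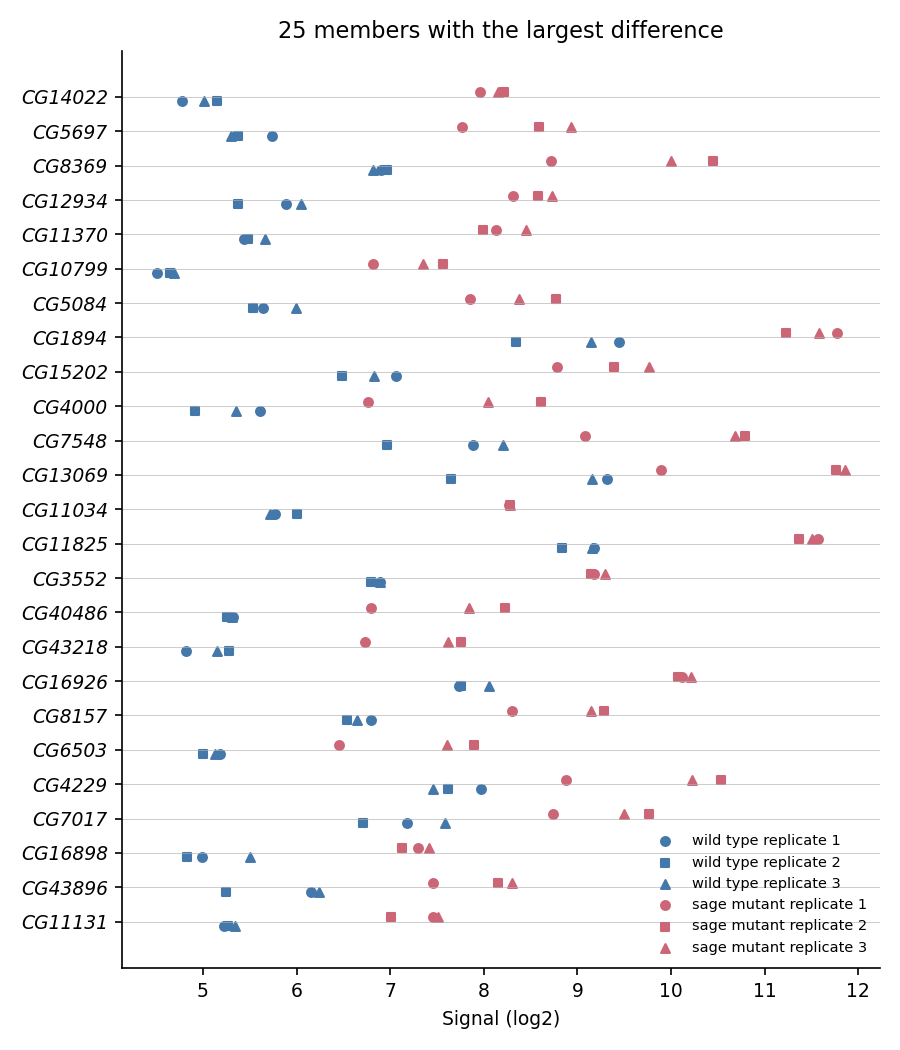
Log2 signal on every array (x axis) for the 25 genes with the largest difference, ordered from CG14022 at the top to CG11131; blue marks are wild type, red marks sage mutant, and the shape gives the replicate number. No red mark overlaps a blue one in any row, and in rows such as CG4000, CG7548 and CG13069 the red circle of mutant replicate 1 lies apart from the other red marks.

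A pair of arm 3L genes combined a high level with a large difference. CG7548 had 7.89, 6.97 and 8.20 in wild type and 9.08, 10.79 and 10.68 in the mutants, 5.66-fold higher, and CG13069 had 9.32, 7.65 and 9.16 and 9.89, 11.76 and 11.86, 5.52-fold higher. In both, wild type replicate 2 was the lowest of its group by more than 0.9 and mutant replicate 1 the lowest of its own by more than 1.5. CG3552 (3L) and CG16926 (2R) behaved otherwise. CG3552 was at 6.89, 6.80 and 6.90 in wild type and 9.18, 9.15 and 9.29 in the mutants (5.08-fold), and CG16926 was at 7.73, 7.76 and 8.06 and 10.11, 10.07 and 10.21 (4.86-fold). Within a group these arrays differed by at most 0.32.

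Other genes among the 25 largest differences also lack a role here. CG43218 (3L) had 4.82, 5.28 and 5.15 in wild type and 6.73, 7.75 and 7.62 in the mutants. CG8157 (2R) had 6.80, 6.54 and 6.65 and 8.30, 9.28 and 9.15. CG6503 (3R) had 5.18, 5.002 and 5.12 and 6.46, 7.90 and 7.61. In these genes, which were 4.88-fold, 4.75-fold and 4.65-fold higher, mutant replicate 1 was the lowest mutant array each time. CG4229 (3L) had 7.97, 7.61 and 7.46 and 8.87, 10.54 and 10.22, and CG43896 (3L) had 6.16, 5.25 and 6.24 and 7.46, 8.15 and 8.30, with folds of 4.58 and 4.25. CG11131 (3L) was at 5.23, 5.26 and 5.34 in wild type and 7.46, 7.01 and 7.51 in the mutants, 4.13-fold higher, with mutant replicate 2 lowest.

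For 39 of the 126 genes a predicted role can be given, from a synonym in the RefSeq gene table or from their known protein family, and 87 have none here. The 39 had wild type means between 5.11 and 11.13. The median difference was 1.42 for the 87 genes without a role, equal to that of all 126. Peptidases and their inhibitors were the most frequent of these roles, with 14 genes. Nothing is read from that count, since the share of such genes among all CG genes was not determined.

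7 genes belong to the serine protease family, the fold of trypsin and chymotrypsin. CG5255, CG11911, CG10472 and CG31954 are listed as proteases, and CG4998, CG4653 and CG9673 as protease homologues, relatives that usually lack a catalytic residue. CG11911 (2L) was at 7.36, 6.69 and 6.998 in wild type and 8.63, 8.83 and 8.55 in the mutants, 3.15-fold higher. CG5255 (3R) was at 5.66, 5.63 and 5.95 and 6.63, 7.99 and 7.58, 3.15-fold higher. CG10472 (3L) had 7.42, 6.77 and 7.44 and 8.03, 9.31 and 8.79, 2.83-fold higher. Of these, CG11911 had the most even mutant arrays. CG31954 (2L) differed by 2.08-fold, CG9673 (X) by 2.06-fold and CG4653 (X) by 2.14-fold. CG4998 (3L) had the highest mutant mean of all 126 genes, with 11.06, 10.30 and 12.03 in wild type and 12.04, 12.62 and 12.68 in the mutants, 2.49-fold higher. Wild type replicate 3 came within 0.01 of mutant replicate 1, so the groups barely separated.

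The midgut is the tissue that makes most trypsin-like enzymes. Of 9 measured genes on a midgut and digestion list of 13, 3 passed limma as higher and none as lower. The median difference of the list was 1.44, beside −0.03 over all probe sets. alphaTry, a trypsin, was 1.44 higher on the log2 scale (limma adjusted p = 0.0281), and the chymotrypsin-like Jon25Bii 1.999 higher (limma adjusted p = 0.0231). The measured transcription factors on that list, GATAe and grn, had differences of −0.25 and −0.41 (limma adjusted p = 0.625 and 0.194). The summed linear signal of the list ran from 2316 to 2664 in wild type and from 2595 to 3466 in the mutants, so the sums overlapped slightly. The sum weighs the brightest genes most, here GATAe and grn, with wild type means of 9.91 and 9.90. Taken singly, alphaTry, betaTry, Jon25Bii, Jon65Aiv, Jon99Ci and Mal-A2 had every mutant array above wild type, beside 10.3% of all probe sets. Mal-A1 and GATAe overlapped, and grn was lower on every mutant array, beside 14.1% of all probe sets. Mutant replicate 1 was the highest mutant array for every measured gene on this list but Mal-A2, where it was the lowest (6.63 beside 7.82 and 7.72). It was also the lowest for CG5255, CG10472, CG31954, CG4653, CG9673 and CG4998. The part of the genes on this list in the result was not tested.

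Other predicted peptidases numbered 4. CG11034 (2L), of the dipeptidyl peptidase family, had 5.77, 6.004 and 5.72 in wild type and 8.27, 8.28 and 8.28 in the mutants, 5.45-fold higher. Its mutant arrays agreed within 0.01, the narrowest spread of the 126. CG7860 (X), of the asparaginase and isoaspartyl peptidase family, had 9.84, 10.78 and 9.70 and 11.82, 11.53 and 11.27, 2.7-fold higher, with the highest array of wild type in replicate 2 and of the mutants in replicate 1. CG31233 (3R), an aminopeptidase of the M1 family, was 2.8-fold higher, and CG11961 (2R), of the M28 family, 2.48-fold. Among the inhibitors, CG15369 (X), a cystatin-like inhibitor of cysteine peptidases, had 6.08, 5.85 and 6.06 and 7.09, 8.35 and 8.36, 3.83-fold higher. The Kunitz-type serine protease inhibitors CG16713 and CG10031 (both 2L) were 3.24-fold and 2.48-fold higher. For CG16713 the arrays read 5.79, 5.29 and 5.67 in wild type and 6.31, 7.85 and 7.69 in the mutants. CG10031 had 7.02, 6.21 and 6.86 and 7.05, 8.64 and 8.34, so that wild type replicate 1 lay only 0.03 below mutant replicate 1.

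3 genes close together on arm 3L encode peritrophin-like chitin-binding proteins, a family that lines the gut and associates with cuticle. CG7298 had 7.87, 6.95 and 8.40 in wild type and 9.46, 9.87 and 9.93 in the mutants, 4.04-fold higher. CG7017 had 7.18, 6.71 and 7.58 and 8.74, 9.77 and 9.50, 4.53-fold higher. CG6933 had 8.82, 7.80 and 9.14 and 9.81, 10.78 and 10.71, 3.6-fold higher. In all of them wild type replicate 2 was the lowest of its group and mutant replicate 1 the lowest of its own. Of 9 measured epidermis and cuticle markers limma called 0, with 4 at an unadjusted p under 0.05 and a median difference of 0.32, and their summed linear signal ran from 9390 to 14803 in wild type and from 13501 to 22928 in the mutants. Wild type replicate 2 and mutant replicate 1 gave the lowest sums of their groups there too, and the part of these markers in the result was not tested.

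Genes of lipid metabolism and lipid binding numbered 4. CG5326 (3R), a fatty acid elongase, had 9.36, 7.22 and 9.48 in wild type and 9.53, 10.70 and 10.84 in the mutants, 3.19-fold higher, although its highest wild type array lay only 0.05 below its lowest mutant array. CG8630 (3R), an acyl-CoA desaturase, had 6.56, 6.20 and 5.71 and 6.76, 7.41 and 8.10, 2.4-fold higher. CG10300 (3R) and CG10026 (2L) carry a CRAL-TRIO domain, which holds small lipids, and were 2.16-fold and 2.08-fold higher. Of 3 transporters, CG1698 (2R) and CG15279 (2L) are of the SLC6 type, which imports amino acids or transmitters with sodium, and CG5687 (3L) of the SLC5 type, which imports sugars and vitamins with sodium. CG1698 had 7.76, 7.86 and 8.05 and 8.90, 9.54 and 9.28, 2.55-fold higher, and the folds of CG15279 and CG5687 were 2.04 and 2.36. The groups of CG15279 were 0.02 apart at their nearest arrays.

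4 genes belong to families of enzymes that act on small molecules. CG40486 (X), a short-chain dehydrogenase, went from 5.32, 5.25 and 5.31 in wild type, where the arrays were nearly equal, to 6.80, 8.23 and 7.84, 5.02-fold higher. CG31075 (3R), an aldehyde dehydrogenase, had 6.30, 6.99 and 6.46 and 7.45, 8.74 and 8.15, 2.89-fold higher. CG16898 (2R) and CG18765 (3R) are ecdysteroid kinase-like, a family tied in insects to the inactivation of steroid hormones and of foreign compounds. CG16898 had 4.99, 4.83 and 5.50 and 7.30, 7.12 and 7.41, 4.5-fold higher, with mutant arrays within 0.29, and CG18765 was 2.31-fold higher. Of 13 measured detoxification genes on a list of 14, 6 passed limma as higher and 1 as lower, with a median difference of 0.86. Ugt37A2, a UDP-glycosyltransferase, was 2.67 higher on the log2 scale and Ugt35A1, of the same family, had a difference of −1.88 (limma adjusted p = 0.000241 and 0.0036). The summed linear signal of that list ran from 11889 to 14942 in wild type and from 18212 to 19064 in the mutants, with no overlap, and the part of these genes in the result was not tested.

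Proteins that bind actin numbered 3. CG5023 (3R), calponin-like, had 7.38, 7.22 and 7.39 in wild type and 8.09, 9.02 and 9.21 in the mutants, 2.72-fold higher. CG34417 (X), related to smoothelin, had 10.86, 9.09 and 10.95 and 11.64, 11.16 and 11.37, 2.13-fold higher, with wild type replicate 2 far below the other wild type arrays. CG6891 (X), coactosin-like, had 9.25, 9.51 and 8.55 and 10.14, 10.14 and 10.25, 2.11-fold higher, with mutant arrays nearly equal. Of 6 measured muscle markers on a list of 10, 1 passed limma as higher, Mp20, a calponin-family muscle protein (difference 1.20, limma adjusted p = 0.0371), and the median difference was 0.32. Their summed linear signal ran from 19858 to 30684 in wild type and from 28416 to 36617 in the mutants, and its part in the result was not tested.

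The remaining predicted roles were diverse. CG14275 and CG31676 (both 2L) are Ly6-like, small folded domains usually tethered to the cell surface. CG14275 had 9.41, 10.33 and 9.53 in wild type and 11.11, 12.01 and 11.91 in the mutants, 3.78-fold higher, with wild type replicate 2 the highest of its group, and CG31676 was 2.36-fold higher. The fibrinogen-related CG31832 (2L) and CG10359 (3L) were 2.41-fold and 2.04-fold higher. CG1894 (3R), a histone acetyltransferase of the MYST type, had 9.45, 8.34 and 9.15 and 11.77, 11.22 and 11.58, 5.84-fold higher. CG11825 (2R), with a HIG1 domain as found in mitochondrial proteins, had 9.18, 8.83 and 9.16 and 11.57, 11.36 and 11.51, 5.37-fold higher. Both genes thus combined a wild type mean near 9 with a difference above 2 and a mutant replicate 1 that was the highest of its group. CG10365 (3R), a ChaC-type enzyme that breaks down glutathione, had 7.79, 8.24 and 8.32 and 8.93, 9.998 and 9.77, 2.73-fold higher. CG13623 (3R), an iron-sulphur cluster assembly protein, was 2-fold higher.

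The 10 genes with the highest mutant means included CG4998, CG14275, CG7860, CG1894, CG11825 and CG34417, described above. The other 4 have no role here and differed by little more than the threshold. CG17127 (2L) had 11.28, 10.93 and 11.74 in wild type and 11.96, 12.72 and 12.60 in the mutants (2.16-fold). CG15731 (X) had 11.28, 10.96 and 11.80 and 11.87, 12.61 and 12.57 (2-fold). CG13315 (3L) had 11.07, 10.82 and 11.05 and 11.86, 12.57 and 12.32 (2.41-fold), and CG7330 (3L) had 10.38, 10.35 and 10.88 and 11.17, 11.81 and 11.72 (2.04-fold). CG17127, CG15731, CG4998 and CG13315 had wild type means of 10.98 or more.

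The genes differed in how evenly the mutant arrays shared the increase. Mutant replicate 1 was the lowest mutant array for 106 of the 126 genes, or 84.1%, while it was the lowest at 32.3% of the 7817 probe sets with a mutant mean of at least 7, and at 57.8% of the 1025 of those whose mutant arrays all lay above wild type. The median distance of an array from the wild type mean was 0.93 for mutant replicate 1, 1.74 for mutant replicate 2 and 1.57 for mutant replicate 3. In wild type, replicate 2 was the lowest array for 76 genes, or 60.3%, against 39.1% of the 7817 and 44.3% of the 1025. The control 5′ minus 3′ difference was also lowest on mutant replicate 1, and its part in this pattern was not tested. The genes' replicate values share their arrays, so these counts describe 6 arrays and not 126 independent observations.

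**Figure D3:**
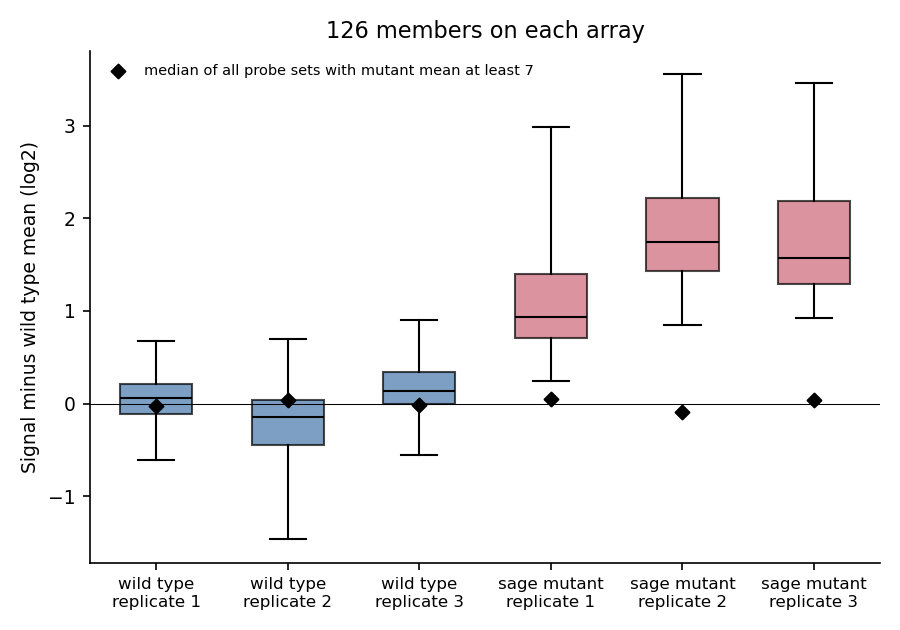
Log2 signal minus the wild type mean (y axis) of the 126 genes on each of the 6 arrays; boxes span the quartiles with the median as a line, whiskers reach the lowest and highest gene, and diamonds are the median of all 7817 probe sets with a mutant mean of at least 7. The median of the genes is 0.93 on mutant replicate 1 against 1.74 and 1.57 on the other mutant arrays, while the diamonds stay between −0.09 and 0.05.

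For 36 genes the mean of mutant replicates 2 and 3 exceeded replicate 1 by at least 1, for 45 by 0.5 to under 1, and for the other 45 the distance was under 0.5 in either direction. CG9269 (3R) showed the widest distance, with 6.95, 6.33 and 6.98 in wild type and 7.22, 9.46 and 9.11 in the mutants. CG13069, CG14565, CG7548 and CG14573 followed, at 1.92, 1.67, 1.65 and 1.60. At the other end, 15 genes had mutant arrays within 0.3 of each other, among them CG11034, CG6891, CG31517, CG16926, CG3552 and CG11825, and CG11034 and CG3552 had wild type arrays within 0.3 as well. CG15695 (3R) leaned the other way, with 8.22, 7.73 and 7.83 in the mutants and 7.28, 6.70 and 6.51 in wild type. When mutant replicate 1 was left out, 257 probe sets met the rule, including 124 of the 126, and without both mutant replicate 1 and wild type replicate 2 220 did, including 113.

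By position, 39 of the 126 genes lay on arm 3L, 26 on 3R, 23 on 2L, 21 on 2R and 17 on the X chromosome, with none on chromosome 4. Arm 3L thus held 31.0% of the genes, beside 20.5% of the 2243 probe sets with a CG symbol and a mutant mean of at least 7. The X chromosome held 13.5% beside 17.7%, 3R 20.6% beside 24.6%, 2R 16.7% beside 19.8% and 2L 18.3% beside 16.9%. These shares were not tested. The mirrored rule, lower in the mutants from a wild type mean of at least 7, was met by 56 probe sets of 53 genes with a CG symbol, with 33.9% on 3L and 5.36% on the X chromosome, so a high share on 3L was seen in both directions. The median difference by arm ran from 1.21 on the X chromosome to 1.52 on 2R.

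**Figure D4:**
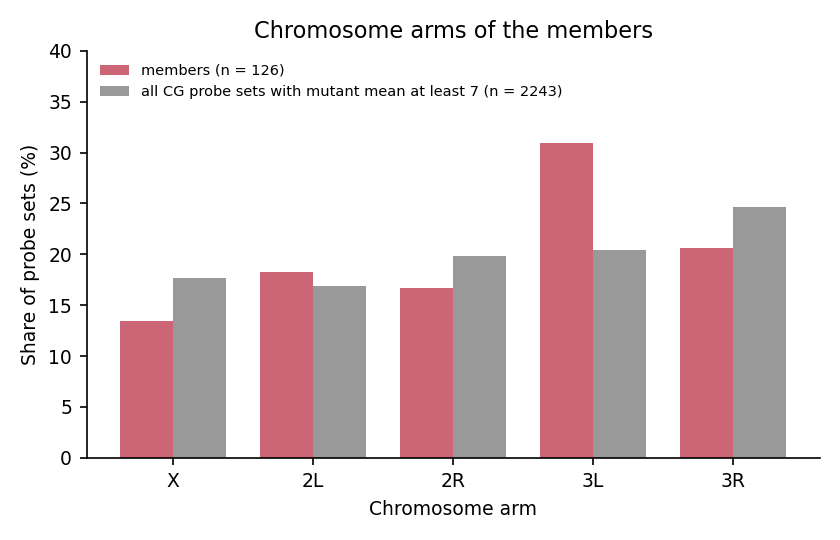
Share of probe sets (y axis, percent) on each of the 5 large chromosome arms for the 126 genes (red) and for all 2243 CG probe sets with a mutant mean of at least 7 (grey). The red bar exceeds the grey one on 3L (31.0% against 20.5%) and on 2L (18.3% against 16.9%), and is lower on the other arms.

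25 of the 126 genes lay within 5 protein-coding genes of another, in 11 runs, of which 6 were on 3L, 2 on 3R, 2 on the X chromosome and 1 on 2L. Under the mirrored rule, 7 of 53 genes lay in 3 such runs. A larger set places more of its genes near each other, so these counts are not compared. Between the members of the 11 runs lay 19 other genes, of which 18 had a probe set of their own. Of these, 15 were higher in the mutants and 7 of the 18 did not overlap between groups, all 7 in the direction of the members, beside 10.3% of all probe sets without overlap in that direction and 24.4% in either. These genes were picked by their place next to members, and the difference in share was not tested. The median difference of the 18 was 0.50, with a range from −0.43 to 1.41, beside −0.03 over all probe sets.

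A run on 3L spanned 7 consecutive genes from CG14569 to CG14565, as did the run from CG13038 to CG4998. In the former, each of the 7 genes, and CG14570 just outside it, had a higher mutant mean, by 0.83 to 1.87. The members were CG14569, with 7.87, 7.84 and 7.30 in wild type and 8.52, 9.99 and 10.11 in the mutants, CG14573, with 6.92, 6.18 and 6.35 and 7.10, 8.60 and 8.79, and CG14565, with 6.08, 6.16 and 5.52 and 6.60, 8.02 and 8.52. They were 3.66-fold, 3.2-fold and 3.47-fold higher, and all had a low mutant replicate 1. CG14570, CG14568 and CG14572 differed by 1.71, 1.17 and 1.08 but overlapped between groups. CG14567 and CG14566 did not overlap and differed by 0.83 and 1.09, the former under the threshold of 1 and the latter with a mutant mean of 6.95. Beyond them on either side, Polr2H and Syn1 had differences of −0.10 and −0.03.

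**Figure D5:**
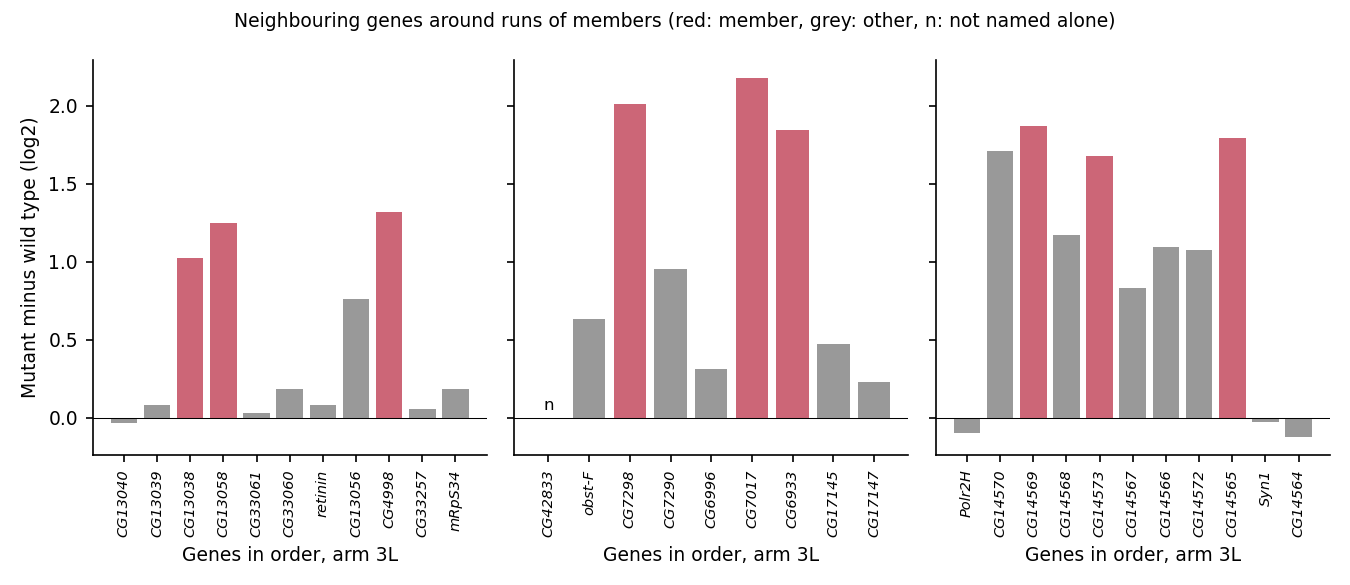
Difference between mutant and wild type means (y axis, log2) of consecutive protein-coding genes, in genome order, around the 3 runs on arm 3L with at least 3 members; red bars are members, grey bars other genes, each by its brightest probe set, and n marks a gene without a probe set of its own. In the right panel all 8 genes from CG14570 to CG14565 are higher by 0.83 to 1.87, while in the left panel the genes between CG13058 and CG13056 lie between 0.03 and 0.19.

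In the chitin-binding run, CG7290 and CG6996, which lie between CG7298 and CG7017, differed by 0.96 and 0.32 from low wild type means of 5.31 and 5.02. Next to each other on the X chromosome were CG15199, 2.33-fold higher with 6.52, 6.58 and 6.53 in wild type and 7.40, 8.12 and 7.77 in the mutants, and CG15202. The protease homologues CG9673 and CG4653 were also adjacent, as were CG13033 and CG4229, CG32032 and CG13315, and CG13038 and CG13058. CG13033 had 9.64, 9.29 and 9.37 in wild type and 10.03, 11.21 and 11.22 in the mutants (2.62-fold), and CG32032 had 9.47, 9.42 and 9.58 and 10.26, 10.83 and 10.70 (2.16-fold). Between the Kunitz-type genes CG16713 and CG10031 lie IM33 and CG3604, of the same inhibitor family, with differences of 1.41 and 0.79 and no overlap between groups.

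Not every run was uniform. CG13046 and CG4962 were 2.32-fold and 3.87-fold higher, with CG13045 between them at a difference of 0.51 with overlap. CG4962 had 6.54, 5.43 and 6.29 in wild type and 7.02, 8.53 and 8.57 in the mutants. Between CG13058 and CG4998, the genes CG33061, CG33060 and retinin had differences of 0.03, 0.19 and 0.08 and mutant means under 6. CG13038 and CG13058 were 2.03-fold and 2.38-fold higher. CG10300 and CG10365 enclosed nau, a myogenic transcription factor, at −0.43, and CG31337 (2.67-fold higher) and CG9269 (3.59-fold higher) enclosed CG14370 at −0.05. In these runs the genes between members overlapped between groups, except CG13056 next to CG4998, which differed by 0.76 without overlap.

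Agreement between probe sets could be examined for 8 of the genes, which had 11 further probe sets. 3 of the 11, for CG13737, CG6891 and CG43896, also had every mutant array above wild type, with differences of 0.93, 0.93 and 0.27. That of CG43896 was dim, with means of 4.71 in wild type and 4.98 in the mutants. The second probe set of CG6891 read 10.61, 10.97 and 10.04 in wild type and 11.50, 11.48 and 11.43 in the mutants, and that of CG13737 read 10.45, 10.37 and 10.32 and then 11.04, 11.57 and 11.34. The differences at the probe sets that met the rule were 1.08 and 1.37.

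Of the other 8 probe sets, 7 overlapped between groups and 1, for CG34417, was lower on every mutant array. The second probe set of CG1894 read 5.39, 5.25 and 5.26 in wild type and 5.17, 5.43 and 5.34 in the mutants, a difference of 0.01 beside 2.55 at the probe set that met the rule. That probe set carries the suffix _s_at, which marks probes that can match more than 1 transcript, as do those of 9 of the 126 genes. CG5326 had further probe sets at −0.71 and 0.03, CG34417 at −0.07 and, without overlap, −0.20, CG43078 at 0.02 and 0.01, and CG40486 at 0.14. The further probe set of CG43078 with a difference of 0.02 had means of 7.45 in wild type and 7.47 in the mutants. The one of CG5326 at −0.71 had means of 7.07 and 6.36. All of the 8 but the one of CG43078 at 0.02 had mutant means under 7. Those of CG1894 and CG40486, and those of CG5326 at 0.03, CG34417 at −0.20 and CG43078 at 0.01, had means of 5.31 or less in both groups. These means lay below the array medians, where a difference may not be seen. For CG1894 and CG40486 the difference therefore held for 1 probe set, and the only further one was dim. CG5326, CG34417 and CG43078 each also had a further probe set with means above the array medians in both groups. Those were the ones at −0.71, −0.07 and 0.02, so there the difference was not seen at a probe set that was not dim.

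Taken by size, level, role or neighbourhood, 74 of the 126 genes stand above. The other 52 differed by 1.01 to 1.96 with a median of 1.27, from wild type means between 5.11 and 9.61. CG18367 and CG14302 had the largest differences among them, at 1.96 and 1.95. CG14302 (3R) read 7.05, 6.51 and 6.97 in wild type and 8.69, 8.75 and 8.95 in the mutants, and CG18367 (2R) read 4.99, 5.19 and 5.16 and 6.88, 7.29 and 7.06. CG2157 (X) had the highest mutant mean of the 52, with 9.45, 9.59 and 9.80 and 9.97, 11.30 and 10.81, 2.11-fold higher. Mutant replicate 1 was the lowest mutant array for 42 of the 52, close to the share seen over all 126 genes.

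Of the other fixed marker lists, 5 of 9 measured salivary gland genes, sage included, passed limma as lower, PH4alphaSG1 and PH4alphaSG2 among them (differences −2.92 and −1.86, limma adjusted p = 0.0036 and 0.0371), and none as higher. Pxn was lower and NimC1 higher among 10 hemocyte and fat body genes (differences −0.77 and 0.74, limma adjusted p = 0.0231 and 0.0468), and Irk2 higher among 7 Malpighian tubule and hindgut genes (0.55, limma adjusted p = 0.0345). Limma called 0 of 9 nervous system, 5 trachea, 5 germ line and maternal, and 3 stress and wound genes (3, 1, 1 and 0 at an unadjusted p under 0.05), with median differences of 0.16, 0.19, 0.27 and −0.24. Markers of muscle, trachea and epidermis (Mlc1, serp and kkv) had wild type means of 13.29, 12.31 and 11.60.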

How the data were processed

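The authors deposited a log2 value for each probe set on each of 6 Affymetrix arrays. RMA and Partek are named in the submitters' processing notes. The sources used here give neither versions nor settings. RMA normalizes by quantiles by default, which sets arrays on a common distribution and would hide a shift of most genes. The log2 base was taken from RMA's default and the range of the values.

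The table held 18952 rows. 183 control probe sets were left out of the tests. Among the 18769 tested, a single gene was named by 13647 probe sets and several genes by 402, while 4720 have no name here. Symbols came from the platform annotation and were updated with NCBI RefSeq gene names (assembly Release 6 plus ISO1 MT, 11894 of 11983 genes found), which changed none of the CG symbols. The RefSeq table also gave chromosome arms, synonyms and gene order. The files name no genome build, so no coordinates are given. A non-member gene was represented by its brightest probe set.

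The fit over all probe sets used lmFit and eBayes of limma (version 3.58.1, under R version 4.3.3), with a term for group and no other, and p-values adjusted by Benjamini-Hochberg were called at 0.05. In a simulation that changed 200 of 18769 probe sets, 63% of shifts of 1 and 90% of shifts of 2 were recovered, with 5 false among 158 calls. The simulated noise was independent for each probe set, without deviations shared across an array. These rates may therefore not hold for the measured arrays. The labels do not say whether replicates came from separate collections. The p-values therefore reflect the spread among these 6 samples, which may be technical. Deviations from the group means correlated at 0.17, 0.28 and 0.31 for arrays with the same replicate number, given in the sample titles. For arrays with different numbers the correlations ran from −0.30 to 0.14. The numbers may therefore pair the samples, which the labels do not say. The p-values given here come from the fit without that block, and the fit with it was run as an alternative.

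The members and gene lists were chosen with earlier results of these data known. Genes described in full were the 25 with the largest difference, the 10 with the highest mutant mean, those with a predicted role, those within 5 genes of another member, those with a further probe set, and the 3 nearest each side of each threshold, with sage as the label check. The planned naming by protein identity was not run. From each list up to 2 called genes are named. Other genes, and predicted roles, were picked after the values were seen. Alternatives changed the normalization, filter, variance model, thresholds and samples.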

Additional observations from a re-analysis of the deposited data

How the results depend on the processing

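All 126 genes kept a positive difference under every alternative fit. The fits were quantile normalization, centring, the filter on dim probe sets, trend and robust variance, and array weights. Others were the replicate block, the control 5′ minus 3′ covariate and leaving out each array. Nothing is read from the sign, since the rule placed every mutant array above every wild type array. Only quantile normalization, centring and the covariate could have given a negative difference. The replicate block gave 641 changed probe sets in place of 757 and 59 called members in place of 63, and changed no count by over 1.5 times. Array weights gave 2737 and 114. With the covariate, chosen after seeing the data, limma called 0 probe sets and 0 members (1613 and 99 at an unadjusted p under 0.05). The median difference of the members was 2.49 in place of 1.42. The covariate does not overlap between the groups, so this fit cannot tell it apart from genotype. Leaving out each array gave 134 to 1111 changed probe sets, 16 to 97 called members and a median difference of 1.26 to 1.68. By the rule it gave 108 to 257 probe sets. Without wild type replicate 1 there were 212 changed probe sets, without wild type replicate 3 276, without mutant replicate 2 135 and without mutant replicate 3 134. By the rule, 257 probe sets were found without mutant replicate 1 and 176 without wild type replicate 3. A mutant mean of at least 8 gave 81, and a difference of at least 1.5 gave 54. Leaving out both wild type replicate 2 and mutant replicate 1, an alternative chosen after seeing the data, gave 220. That alternative gave 3097 changed probe sets and 122 called members. The rule gave 113 probe sets after quantile normalization and 123 with the brightest probe set per gene. It gave 107 after centring, which moved the median of all probe sets from −0.03 to −0.10. Apart from thresholds and fewer arrays, the cause was not tested. The comparison of hydrophobic N-terminal stretches was not run, since no protein sequences were used here. With 3 arrays a group and no detection calls, folds of dim genes are not exact.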
